A study of Neurospora crassa with 2 samples.

Results

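The genes described here are the ion and metal transporters and pumps of *Neurospora crassa*, a filamentous fungus that grows on cellulose. They were taken by words in the annotation column of the deposited table, such as P-type, calcium-transporting, potassium, ferric, copper transport, zinc transporter and ion channel. Annotations that held vacuolar ATP synthase, kinase or resistance were left out, among them that of NCU04076, a copper resistance-associated P-type ATPase. With these left out, the words matched 80 of 9730 genes. In 22 of these the letters "cation" stood inside another word, such as replication, and in 4 more "P-type" or "ferric" did, as in FKBP-type and ferricytochrome. These 26 genes do not carry ions by their annotation and were left out, the last 4 after their annotations and values had been seen, which left 54 genes. The words use no measured value, but the members were chosen with earlier results of these data known.

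RNA was sequenced from mycelia of 1 WT culture and 1 culture of Δ*gul-1*, a strain that lacks the gene of the RNA-binding protein GUL-1. Conidia of both strains had been put into the same medium, with 2% Avicel (crystalline cellulose), 0.75% yeast extract, 0.2% Tween 80 and Vogel's salts, and grown for 3 days at 25 °C in constant light. The deletion strain was from the *N. crassa* knockout collection, and both libraries were from whole mycelia, so that fewer cells of a type and less RNA per cell cannot be told apart. With 1 library per strain no test was possible, and each ratio below compares these 2 libraries rather than the strains.

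Fungal cells drive uptake across the plasma membrane with a proton gradient that a P-type ATPase maintains by pumping protons out of the cell. Related ATPases and exchangers keep calcium and sodium low in the cytosol, and others flip lipids between the leaflets of a membrane. Iron and copper are reduced at the cell surface before high-affinity uptake, while zinc, phosphate and sulfate enter through their own carriers.

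The WT library held 20461987 reads in 9065 genes and the Δ*gul-1* library 20341292 reads in 9119 genes. *gul-1* itself (NCU01197) had 21537 reads in WT and 304 in Δ*gul-1*, or 203.7 and 2.89 RPKM (reads per kilobase of exon, scaled to the library's reads assigned to genes), a ratio of 0.0142. A list of 19 genes of conidia and aerial hyphae, which also holds regulators such as *rco-1*, had a summed level of 7516 RPKM in WT and 1766 RPKM in Δ*gul-1*. Of the 14 past the floor defined below, 11 were within 2-fold. By 2-fold or more 1 was higher and 2 were lower, where all genes past the floor gave 3.88% and 2.63%. Most of the difference in summed level lay in *eas*, the hydrophobin of the conidial surface, at 5793 and 169.0 RPKM. The others went both ways, with *fl* at 55.2 and 22.3 RPKM and *con-8* at 705.6 and 511.1 RPKM. *con-10* was at 159.1 and 229.4 RPKM and *con-6* at 10.3 and 21.3 RPKM. Of 2 genes of sexual tissue, *ccg-4* was at 104.8 and 1090 RPKM and *app* at 110.2 and 7.38 RPKM. *hex-1*, which encodes the core protein of the plugs in hyphal septa, was high in both libraries at 5511 and 4079 RPKM. The part of these tissue genes in the results below was not tested.

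A gene was counted where it had more than 20 RPKM in at least 1 library, called the floor here, and as higher or lower at a ratio of Δ*gul-1* to WT RPKM of at least 2 or at most 0.5. Of the 54 transport genes 30 were past the floor, 24 of them in both libraries, 5 in Δ*gul-1* only and 1 in WT only. By this definition the 5 had ratios above 1 and the 1 a ratio below 1. The same split was not counted over all genes, so it is not a trait of the transport genes. 2 of the 30 were higher by 2-fold or more in the Δ*gul-1* library, against 3.88% of the 4409 genes past the floor in the whole table, and 1 was lower by as much, against 2.63%. The other 27 were within 2-fold, as were 4122 of the 4409 genes, so that a role or list without a gene beyond 2-fold is near that share. At a ratio of 1.5 the counts were 4 higher and 3 lower, where the whole table gave 10.8% and 5.76%. Counts this small are near the shares of the whole table. The median log2 ratio of the 30 genes was 0.11, as was that of all 4409 genes, and the range was from -1.06 to 1.33. Part of the ratios are given with an exact 95% interval from the reads, which covers counting error only. The interval's bounds lay within a factor of 1.05 of the ratio in the median gene past the floor, and within 1.12 in the widest. The spread between cultures is unknown.

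**Figure D1:**
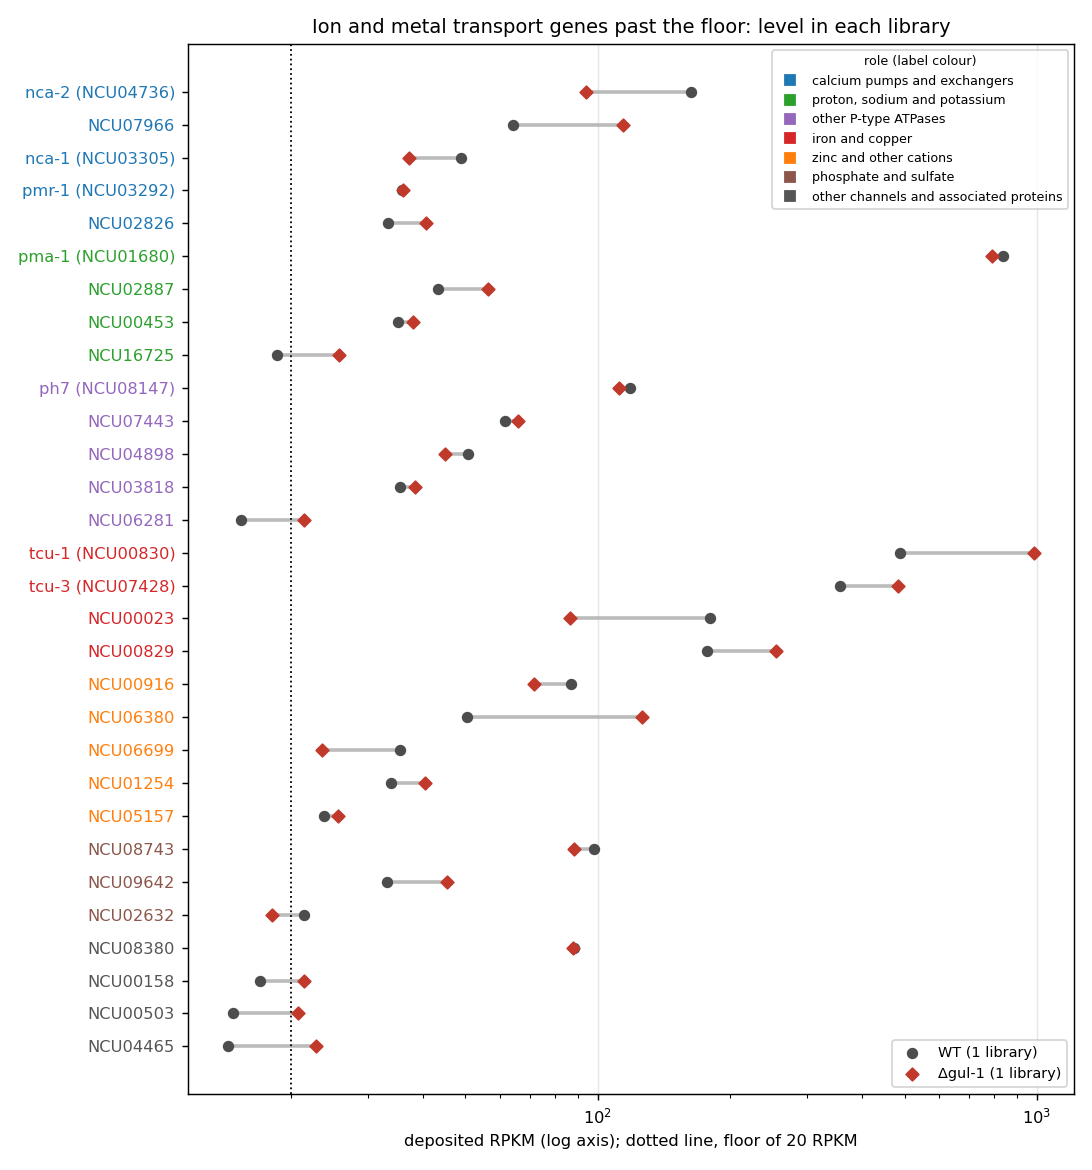
Deposited RPKM (log axis) of the transport genes past the floor of 20 RPKM, with WT and Δ*gul-1* as separate points, 1 library each, and label colours for the roles. The points of most genes lie close together, and *pma-1*, *tcu-1* and *tcu-3* are the 3 most abundant in WT.

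**Figure D2:**
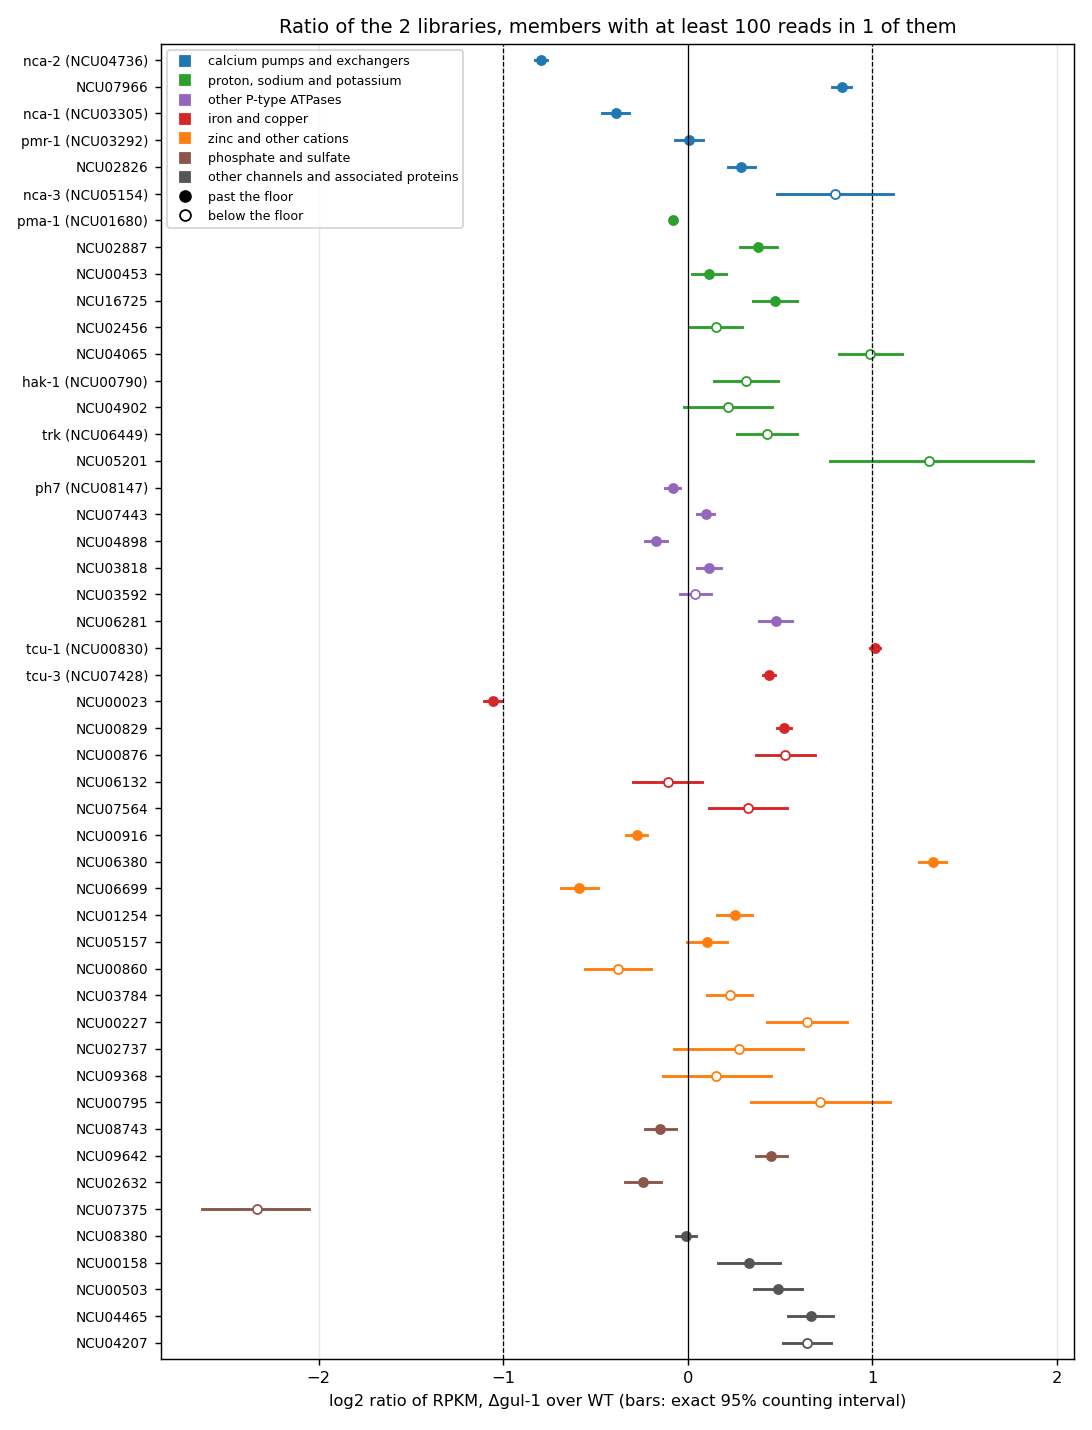
Log2 ratio of RPKM in Δ*gul-1* over WT for the transport genes with at least 100 reads in 1 library, with exact 95% counting intervals as bars and dashed lines at 2-fold. Among the filled points, which are past the floor, NCU06380 and *tcu-1* lie beyond the upper line and NCU00023 beyond the lower, while the open points below the floor have wider bars.

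In the plasma membrane the most abundant transport gene of WT was the proton pump gene *pma-1* (NCU01680), which powers nutrient uptake. It had 57862 reads in WT and 54431 in Δ*gul-1*, or 836.6 and 791.7 RPKM. The ratio was 0.946 (0.935 to 0.957), and the gene ranked 56 of all genes by RPKM in WT and 62 in Δ*gul-1*. The pump gene was thus among the highest in both libraries, with levels that differed by little.

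The calcium pumps and exchangers, 6 genes of which 5 were past the floor, had no gene beyond 2-fold, a median log2 ratio of 0.01 and ratios that went both ways. The summed level of all 6 was 347.2 RPKM in WT and 325.1 RPKM in Δ*gul-1*. The largest member, *nca-2* (NCU04736, chromosome VI, 614672 to 620621 in RefSeq NC12), encodes the calcium ATPase that expels calcium from the *N. crassa* cytosol. It had 19176 reads in WT and 10988 in Δ*gul-1*, or 163.5 and 94.3 RPKM. It was 1.73-fold lower in Δ*gul-1* (1.69 to 1.78), just outside the 2-fold limit.

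NCU07966, annotated as calcium-transporting ATPase 3 (chromosome IV, 1206280 to 1210163), differed the other way. It had 4919 reads in WT and 8713 in Δ*gul-1*, or 64.1 and 114.3 RPKM, a ratio of 1.78 (1.72 to 1.85). It was the gene just outside the limit on the higher side. In WT the level of *nca-2* was above that of NCU07966 and in Δ*gul-1* it was below it.

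Of the other calcium genes, *nca-1* (NCU03305), a further calcium ATPase, was at 48.9 and 37.3 RPKM, a ratio of 0.762 (0.725 to 0.802). It overlaps *pcb-3*, a proteasome gene whose ratio was 0.934, by 142 bases. *pmr-1* (NCU03292), which supplies the Golgi with calcium and manganese, had 2702 and 2699 reads and a ratio of 1.00, with a direction that turned under other scalings of the libraries. NCU02826, a sodium/calcium exchanger, was at 33.3 and 40.7 RPKM, a ratio of 1.22. *nca-3* (NCU05154), below the floor, had 135 and 233 reads and a ratio of 1.74 (1.40 to 2.16).

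The vacuolar calcium exchanger gene *cax* (NCU07075) is not among the 54 but belongs to the list of other metal and ion genes. It had 4933 reads in WT and 2815 in Δ*gul-1*, or 89.6 and 51.4 RPKM. It was 1.74-fold lower in Δ*gul-1*, close to the ratio of *nca-2*. Other calcium genes outside the 54 did not share that ratio. The calcium permease gene NCU05360 was higher, at 66.3 and 91.6 RPKM, a ratio of 1.38. NCU07711, annotated as a vacuolar calcium ion transporter, had a ratio of 0.857, and *mid-1* (NCU06703) of 0.895. Among 11 genes of calcium signalling, 9 were past the floor and none lay beyond 2-fold, near the share of all genes. Their median log2 ratio was 0.23. NCU01504, a calcineurin binding protein, was at 288.2 and 177.9 RPKM, a ratio of 0.617, and the calmodulin gene *cmd* was at 93.2 and 123.3 RPKM, a ratio of 1.32.

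The proton, sodium and potassium genes numbered 10, with 4 past the floor and none of these beyond 2-fold. Besides *pma-1*, NCU02887, annotated as the beta-2 subunit of a voltage-gated potassium channel, had 1465 and 1899 reads, or 43.2 and 56.4 RPKM, a ratio of 1.30 (1.22 to 1.40). NCU16725, annotated as the potassium channel Yvc1, whose yeast counterpart releases cations from the vacuole, was at 18.6 and 25.8 RPKM, a ratio of 1.39. NCU00453, a sodium/hydrogen exchanger, was at 35.2 and 38.0 RPKM, a ratio of 1.08 that went to 0.975 with trimmed-mean (TMM) scaling.

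The potassium uptake genes were low in both libraries. *hak-1* (NCU00790), a high-affinity potassium transporter, had 496 and 614 reads, or 7.33 and 9.12 RPKM. *trk* (NCU06449), a potassium carrier of another family, had 545 and 729 reads, or 5.82 and 7.83 RPKM. Their ratios were 1.25 and 1.35, both below the floor. NCU02456, annotated as a potassium transporter, and NCU04902, a sodium-hydrogen antiporter, were also below the floor, with ratios of 1.11 and 1.16. The interval of NCU04902, from 0.987 to 1.37, held 1.

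Among the potassium channels, NCU04065 had 417 reads in WT and 823 in Δ*gul-1*, or 7.42 and 14.7 RPKM, a ratio of 1.99 (1.76 to 2.24). It was below the floor and just under 2-fold. NCU05201, with the same annotation, had 41 reads in WT and 101 in Δ*gul-1*, or 0.832 and 2.06 RPKM. Its ratio of 2.48 (1.71 to 3.65) made it the only gene below the floor with at least 100 reads that was at least 2-fold higher, against 5.4% of such genes in the whole table. It met the limit of 100 reads in Δ*gul-1* only, so that the limit itself favoured a higher ratio. With 1 RPKM added to both levels the ratio was 1.67.

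The remaining P-type ATPases, 6 genes with 5 past the floor, had a median log2 ratio of 0.10 and no gene beyond 2-fold. *ph7* (NCU08147, also named *ena-2*) was the highest of them with 9903 and 9295 reads, or 118.3 and 111.7 RPKM, a ratio of 0.944 (0.918 to 0.971). NCU06281 stood at 15.5 and 21.5 RPKM, a ratio of 1.39, and was past the floor in Δ*gul-1* only. NCU03592, below the floor, had a ratio of 1.03 that went to 0.927 with TMM scaling. NCU04898, cation-transporting ATPase 4, was at 50.6 and 44.9 RPKM, a ratio of 0.888. The lipid flippase genes NCU07443 and NCU03818 had ratios of 1.07 and 1.08, whose direction turned with TMM scaling. Over all 12 genes annotated as ATPases, 10 were past the floor, none was beyond 2-fold, and the summed level of all 12 was 1449 RPKM in WT and 1376 RPKM in Δ*gul-1*.

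After the proton pump, the 4 highest transport genes of WT were copper and iron genes. Of 8 genes 4 were past the floor, and of these 1 was higher and 1 lower, where all genes past the floor gave 3.88% and 2.63%. Single genes are too few to read as a trait of the role. The median log2 ratio of the 4 was 0.48. The summed level of all 8 was 1230 RPKM in WT and 1844 RPKM in Δ*gul-1*, and most of that difference lay in *tcu-1*. *tcu-1* (NCU00830, chromosome I, 7030363 to 7032262), which encodes a high-affinity copper transporter of the Ctr family, had 17523 reads in WT and 35213 in Δ*gul-1*. These are 487.7 and 985.8 RPKM, and by RPKM the gene ranked 115 in WT and 44 in Δ*gul-1*. The ratio was 2.02 (1.99 to 2.06), just inside the limit, and 1.82 with TMM scaling, which is outside it.

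*tcu-3* (NCU07428), the other copper transporter gene among the 54, had 11380 and 15345 reads, or 356.5 and 483.6 RPKM. Its ratio was 1.36 (1.32 to 1.39). *tcu-2* (NCU03281), which the annotation words missed, was at 117.1 and 164.4 RPKM, a ratio of 1.40. *tcu-1*, *tcu-2* and *tcu-3* were thus all higher in the Δ*gul-1* library, where 2818 of all 4409 genes past the floor had a ratio above 1. With TMM scaling the ratios of *tcu-2* and *tcu-3* were 1.265 and 1.22. The summed level of the 3 genes was 961.3 RPKM in WT and 1634 RPKM in Δ*gul-1*. Below the floor, NCU09809, annotated as a mitochondrial copper ion transporter, had 192 and 188 reads, a ratio of 0.985 (0.801 to 1.21). The copper-transporting ATPase gene NCU07531 had 158 and 225 reads, a ratio of 1.43 (1.16 to 1.77).

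The ferric reductases, which reduce iron and copper at the cell surface, did not share a direction. NCU00023 (chromosome III, 2329756 to 2332744) had 10765 reads in WT and 5143 in Δ*gul-1*, or 179.7 and 86.4 RPKM. It was 2.08-fold lower in Δ*gul-1* (2.01 to 2.15), the only transport gene past the floor called lower and the gene just inside that limit. NCU00829 had almost the same WT level, with 9089 and 12963 reads, or 177.7 and 255.0 RPKM, and a ratio of 1.43 (1.40 to 1.47).

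NCU00829 is next to *tcu-1* on chromosome I, with 675 bases between them, so that the pair of neighbours were both higher in Δ*gul-1*. The gene on the other side of *tcu-1*, NCU00831, a serine carboxypeptidase gene 25 bases away, was at 63.2 and 49.4 RPKM, a ratio of 0.781. Another ferric reductase, NCU00876, was below the floor at 10.8 and 15.6 RPKM, a ratio of 1.44.

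Iron taken up as siderophores, small molecules that bind it, passes other carriers, which were low. NCU06132, a siderophore iron transporter, had 490 and 452 reads, a ratio of 0.928 (0.815 to 1.06). NCU07564, annotated as the siderophore carrier mirC, had 336 and 418 reads, a ratio of 1.25 (1.08 to 1.45). The intervals of this pair do not overlap, but they leave out the spread between cultures, and both genes were below the floor. NCU02879, a zinc/iron transporter, had 43 and 34 reads, a ratio of 0.795 (0.492 to 1.28), so that no direction was detectable at this depth.

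**Figure D3:**
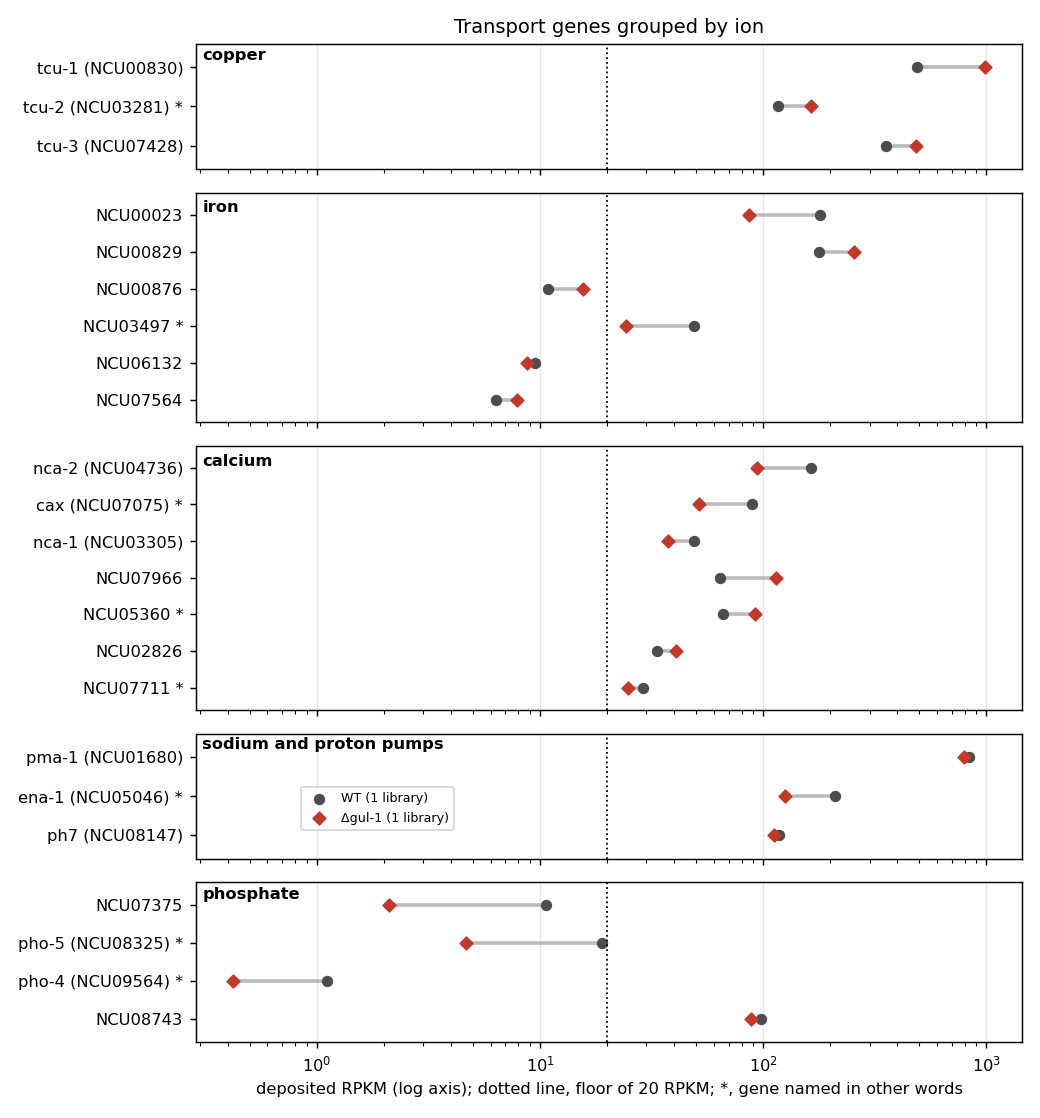
Deposited RPKM (log axis) of transport genes by ion, 1 WT and 1 Δ*gul-1* library, with the floor as a dotted line. An asterisk marks genes that are not among the 54 but carry the same ion. *tcu-1*, *tcu-2* and *tcu-3* are all higher in Δ*gul-1*, and *pma-1* has nearly the same level in both libraries. Among the calcium genes *nca-2* and *cax* are lower, while NCU07966 and NCU05360 are higher.

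The carriers of zinc and other cations, 13 genes with 5 past the floor, included the transport gene with the highest ratio past the floor. NCU06380 (chromosome IV, 2714109 to 2716288) is annotated as zinc transporter YKE4, which in yeast sits in the endoplasmic reticulum. It had 2067 reads in WT and 5154 in Δ*gul-1*, or 50.3 and 126.2 RPKM. The ratio was 2.51 (2.38 to 2.64), and 2.26 with TMM scaling. By RPKM the gene stood at rank 1716 in WT and rank 643 in Δ*gul-1*.

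NCU06699, cation diffusion facilitator 1, belongs to a family that moves zinc and other divalent metals out of the cytosol. It had 2028 and 1341 reads, or 35.4 and 23.6 RPKM, a ratio of 0.665 (0.620 to 0.713). NCU00916, a membrane bound cation transporter, was at 86.7 and 71.6 RPKM, a ratio of 0.825. NCU01254, of the cation efflux family, was at 33.9 and 40.4 RPKM, a ratio of 1.19. NCU05157, cation diffusion facilitator 10, had a ratio of 1.07 (0.998 to 1.16) that went to 0.968 with TMM scaling. Within these carriers, ratios thus went both ways.

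Of the 8 below the floor, the ZIP family zinc transporter NCU00860 had 602 and 461 reads, a ratio of 0.770. The mitochondrial cation transporter NCU00227 had 293 and 455 reads, a ratio of 1.56. NCU07709, annotated as cation efflux system protein czcD, had the fewest reads of all 54, with 5 in WT and 23 in Δ*gul-1*. Its interval ran from 1.72 to 15.6. The ratios of the other 5 ran from 1.07 to 1.64, with the lowest, that of NCU04818, at 0.967 with TMM scaling. The intervals of NCU04818, NCU09368 and NCU02737 held 1. The list of 27 other metal and ion genes was picked by annotation words and does not hold carriers only. It also has genes of molybdenum cofactor and siderophore synthesis and the siderophore regulator *sre*. Of the 27 genes 16 were past the floor, 1 of them higher by 2-fold or more and 0 lower by as much. These counts are near the 3.88% and 2.63% of all genes, and the median log2 ratio was 0.09. The higher gene was NCU08225, a nickel transporter, at 12.5 and 26.6 RPKM, a ratio of 2.12 that went to 1.91 with TMM scaling.

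The phosphate and sulfate carriers numbered 5, with 3 past the floor and none of these beyond 2-fold. NCU08743, an inorganic phosphate transporter, was the highest with 2441 and 2187 reads, or 98.0 and 88.3 RPKM, a ratio of 0.901. NCU09642, a high-affinity sulfate transporter, was at 33.2 and 45.5 RPKM, a ratio of 1.37. It overlaps NCU10572, whose ratio was 1.59, by 272 bases, and reads of overlapping genes cannot be told apart without strand. NCU02632, a second sulfate transporter, was at 21.4 and 18.1 RPKM, a ratio of 0.845.

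The transport gene with the lowest ratio of all 54 was below the floor. NCU07375, an MFS phosphate transporter (chromosome I, 6171978 to 6174862), had 615 reads in WT and 121 in Δ*gul-1*, or 10.7 and 2.11 RPKM. It was 5.05-fold lower in Δ*gul-1* (4.15 to 6.19), the only gene of the 19 below the floor with at least 100 reads that was at least 2-fold lower, against 1.97% of such genes in the whole table. NCU03235, annotated as sulfate permease II, had 66 and 37 reads, a ratio of 0.564 (0.366 to 0.856).

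The other channels and associated proteins, 6 genes with 4 past the floor, had a median log2 ratio of 0.41. However, 3 of these 4 were past the floor in Δ*gul-1* only, so that their ratios had to be above 1. The median is thus partly set by the floor. NCU08380, a phosphatase for sodium stress, was past the floor in both libraries at 88.4 and 87.9 RPKM, a ratio of 0.994. NCU04465, a nonselective cation channel, had 916 and 1444 reads, or 14.4 and 22.8 RPKM, a ratio of 1.59 (1.46 to 1.72). NCU00503, with the same annotation, was at 14.8 and 20.8 RPKM, a ratio of 1.40, and was the gene just inside the floor. NCU00158, a potassium channel regulatory factor, was at 17.0 and 21.4 RPKM, a ratio of 1.26. NCU09933, an ion channel with 27 and 45 reads, had a ratio of 1.68 (1.02 to 2.81). The gene just outside it was NCU04207, a mechanosensitive channel, which opens when the membrane is stretched, at 11.5 and 17.9 RPKM, a ratio of 1.56.

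Across the roles, 9 of the 54 genes have "channel" in their annotation, among them the regulatory factor NCU00158 with the lowest ratio, a grouping looked at after the values were known. All 9 had more RPKM in Δ*gul-1*, with ratios from 1.26 to 2.48, and all 9 intervals lay above 1. Their median log2 ratio was 0.65, and that of the other 45 genes was 0.11, of which 29 had a ratio above 1 and 22 an interval above 1. Of the 6135 genes of all kinds with a WT level in the same range, from 0.832 to 43.2 RPKM, 70.4% had a ratio above 1. The interval lay above 1 in 3025 of these 6135 genes, and the median log2 ratio of the 6135 was 0.17. With TMM scaling all 9 ratios stayed above 1, the smallest at 1.13, against 53.2% of those genes. The 6 other genes of the table with that word had ratios from 1.08 to 1.92, and with TMM scaling 4 were above 1 and 2 below, from 0.970 to 1.73.

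**Figure D4:**
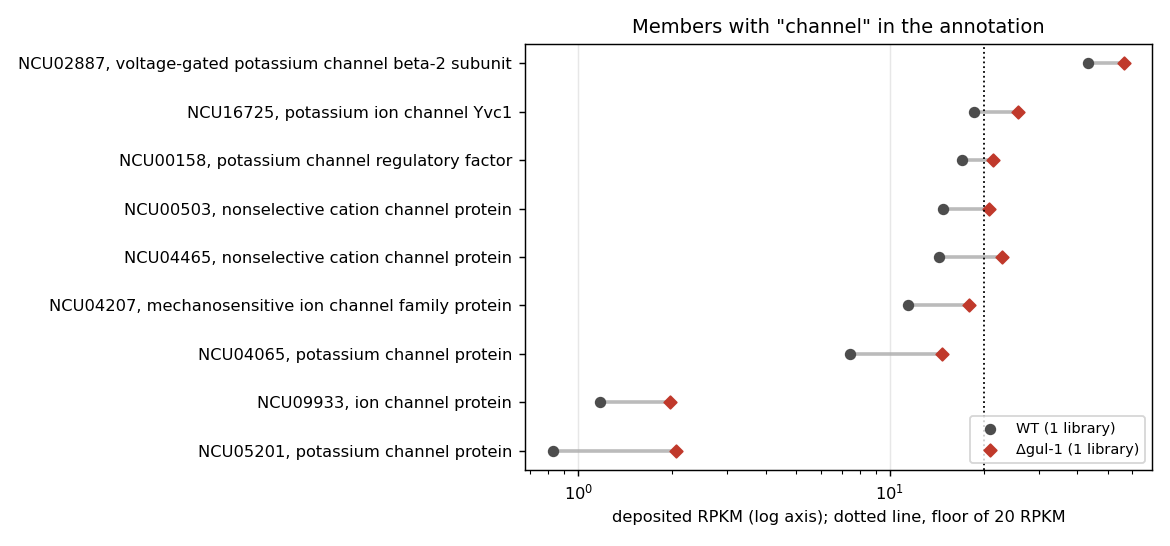
Deposited RPKM (log axis) of the 9 transport genes with "channel" in their annotation, ordered by their WT level, in 1 WT and 1 Δ*gul-1* library. In each of the 9 the Δ*gul-1* point is to the right of the WT point.

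**Figure D5:**
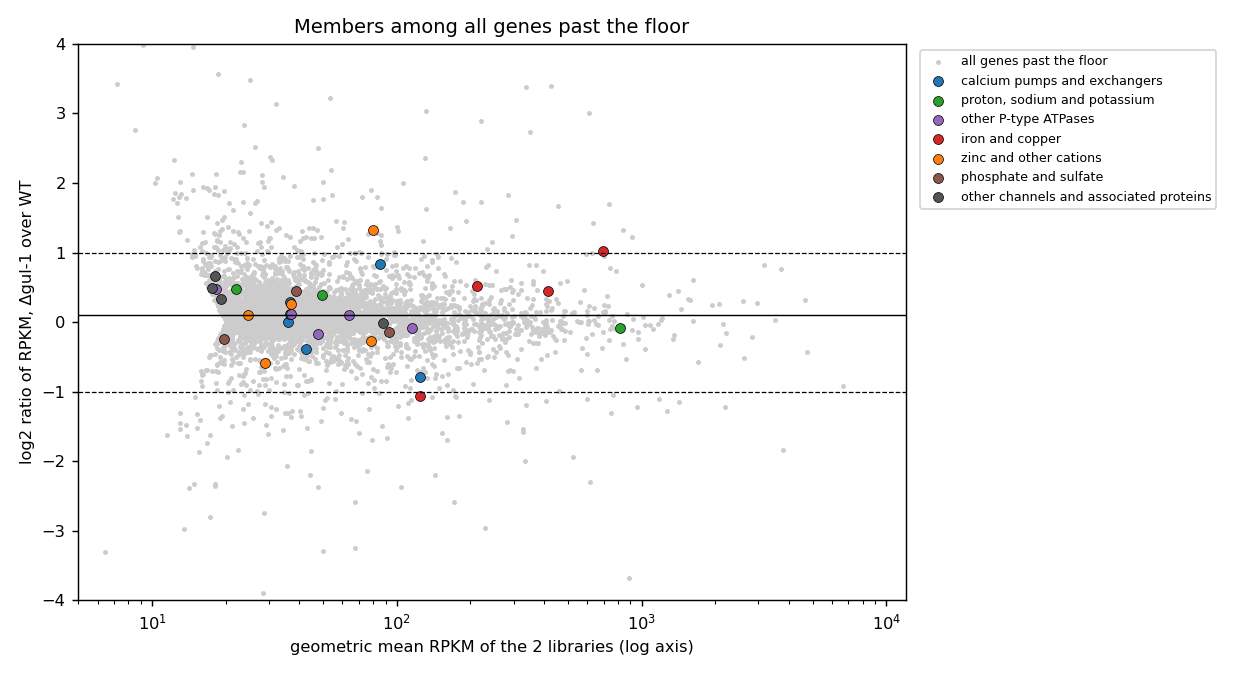
Log2 ratio of RPKM in Δ*gul-1* over WT against the geometric mean RPKM (log axis) for all genes past the floor in grey and the transport genes coloured by role, with dashed lines at 2-fold and a solid line at the median of all genes, 0.11. Most transport genes lie within the grey band, and 6 genes of the table fall outside the plotted range.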

How the data were processed

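The table held 2 RNA-seq libraries of *N. crassa* mycelia, 1 WT and 1 Δ*gul-1*. The deposited counts are reads per gene. Per the submitters' processing notes, the authors used TopHat2 2.0.8b and HTSeq 0.5.4p2, and per the paper's methods they kept reads that mapped to 1 gene. The deposited RPKM is the authors' scaling of those reads by exon length and by the library's total, which the counts gave back with a largest gap of 1.8e-12. A strand setting for the counting was not given in the sources used here. A further column, the authors' own NOISeq comparison of the strains, was not used.

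Ratios of Δ*gul-1* to WT RPKM were computed without a pseudocount. Exact 95% intervals (Clopper-Pearson, on the share of reads) used Python 3.11.15 and scipy 1.17.1, and TMM factors used edgeR 4.0.16 in R 4.3.3. Calculations were tested on simulated data. The floor was 20 RPKM in at least 1 library. Gene names and positions came from the RefSeq NC12 table, which held all 54 members. Sequences were not used here.

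Members and lists were chosen with earlier results of these data known. The lists covered other metal and ion genes, calcium signalling, and markers of conidia and aerial hyphae, sexual tissue and hyphae. Lists of the vacuolar proton pump, of the same ions under other words and of the phosphate system, and the channel grouping, were added after the values were seen. Named were *gul-1*, members beyond 2-fold past the floor, in each role up to 4 with the largest log2 ratios and up to 3 with the highest WT RPKM past the floor, members with a RefSeq symbol, those next to each limit, up to 2 genes of each list, and members below the floor with at least 100 reads beyond 2-fold. Other members named were chosen after their values were seen, as were *con-6*, *con-8*, *con-10*, *tcu-2*, *cmt*, NCU05360, NCU07711, *mid-1*, further genes of the added lists and the neighbours of members. Alternatives were other scalings, floors, fold limits, a pseudocount of 1 RPKM and other readings of the annotation words.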

Additional observations from a re-analysis of the deposited data

How the results depend on the processing

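With 1 library per strain, leaving out a replicate was not possible. No paired analysis was possible because the labels carry no replicate numbers and each strain has 1 library. The count of transport genes at least 2-fold higher, 2 as reported, was 1 with TMM scaling, 1 with median-of-ratios scaling, 1 with a library total without the 50 most abundant genes, 1 when the whole interval had to lie beyond 2-fold, 4 without a floor, 4 at 1.5-fold and 0 at 3-fold. The count of those at least 2-fold lower, 1 as reported, was 2 with a floor of 5 RPKM, 2 without a floor, 3 at 1.5-fold and 0 at 3-fold. The median log2 ratio, 0.11 as reported, was -0.0359 with TMM scaling, -0.0357 with median-of-ratios scaling, 0.22 with a floor of 5 RPKM, -0.0092 with a floor of 50 RPKM and 0.24 without a floor. TMM scaling moved every log2 ratio by -0.15, which turned the direction of 7 of the 54 genes (NCU00453, *pmr-1*, NCU03818, NCU07443, NCU05157, NCU03592 and NCU04818) and the whole table from 171 higher and 116 lower to 137 higher and 151 lower. Adding 1 RPKM, or keeping the genes set aside by annotation, changed neither count. Depth limits only the genes with few reads, such as NCU02879, NCU04818 and NCU07709.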

Other observations

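Other ion transport genes were described by lists added after the values were seen. The 14 subunit genes of the vacuolar proton pump, which acidifies the vacuole, were all past the floor and all within 2-fold. Of all 4409 genes past the floor, 4122 were within 2-fold too. Their log2 ratios ran from -0.15 to 0.36 with a median of 0.02, and their summed level was 1577 RPKM in WT and 1560 RPKM in Δ*gul-1*. The sodium pump gene *ena-1* (NCU05046) had 20614 reads in WT and 12194 in Δ*gul-1*, or 210.4 and 125.2 RPKM, a ratio of 0.595, while *pma-1*, of the same ATPase superfamily, had a ratio of 0.946. The plasma membrane iron permease gene NCU03497 had 1563 and 776 reads, or 48.9 and 24.4 RPKM. Its ratio of 0.499 (0.458 to 0.545) was below 0.5 by less than its counting error. The copper metallothionein gene *cmt*, whose product binds copper in the cytosol, belongs to none of the lists. It was at 837.5 and 516.9 RPKM, a ratio of 0.617. A link to the copper transporter genes was not tested.

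Of the high-affinity phosphate permease genes, *pho-5* had 844 reads in WT and 206 in Δ*gul-1*, or 19.1 and 4.68 RPKM, a ratio of 0.246 (0.210 to 0.286). *pho-4* had 90 and 34 reads, a ratio of 0.380 (0.248 to 0.570). Both were below the floor and on the same side as NCU07375. Of the regulators of phosphate uptake, *nuc-1*, the transcription factor of the phosphate response, had a ratio of 1.12, *nuc-2* of 1.13 and *preg* of 1.08, the last of which went to 0.973 with TMM scaling. The phosphatase gene NCU08997 was at 42.4 and 49.0 RPKM, a ratio of 1.16, while the gene *pho-3* of the same list had 68 and 18 reads, a ratio of 0.266 (0.149 to 0.453). The gene *pho-2* of that list, also below the floor, had 303 and 352 reads, a ratio of 1.17 (0.999 to 1.37).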
